A study of Mus musculus with 30 samples.

Results

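The 9 genes described here, Pax3, Pax7, Lbx1, Met, Hgf, Cxcr4, Six4, Eya1 and Eya2, are genes of the muscle progenitors that migrate into the limb bud and of the signals that guide them. They were chosen by name, and all 9 were found by gene symbol among the 55052 genes of the FPKM table and joined by Ensembl identifier to the count table of 50833 genes. PolyA RNA was sequenced from the forelimb buds of wild-type Swiss Albino mouse embryos. Pregnant females received Wnt-C59 (C59), which blocks porcupine and with it the secretion of WNT ligands, or a DMSO control injection, at embryonic stage E10.5. The injections differed in more than C59: the control was DMSO diluted in PBS, whereas C59 was given in PBS with methylcellulose, Tween-20 and DMSO, so C59 and its vehicle cannot be told apart. Forelimb buds were collected 1, 6, 12, 18 or 24 h later, which gave 10 groups of 3 replicates and 30 libraries. All embryos had the same genotype, and the groups differed by injection and time. Each replicate was made from a single pair of forelimb buds, as the methods describe it, although 14 libraries held transcripts of both sexes, as given below. The methods state that the embryos of each condition and time point came from several litters, and the labels do not say which library came from which.

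Limb muscle does not arise in the limb bud itself. Cells at the lateral edge of the somite express PAX3, detach in response to HGF from the limb mesenchyme, which signals through the receptor MET on the progenitors, and migrate into the bud. LBX1 is needed for their path within the limb, CXCR4 reads the mesenchymal chemokine CXCL12, and SIX4 with its EYA cofactors acts upstream of and beside PAX3. Progenitors then stop migrating and either turn on the myogenic factors MYF5, MYOD1 and MYOG or are kept as PAX7-expressing cells. Of the 9 genes, Pax3, Lbx1 and Pax7 mark the progenitors among limb bud cells most closely. Hgf is a gene of the mesenchyme, and Met, Cxcr4, Six4, Eya1 and Eya2 are also expressed by other limb bud cells. In RNA from whole limb buds, fewer cells of a type and less RNA per cell cannot be told apart.

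All 9 genes are protein-coding. On mm10, Pax3 (ENSMUSG00000004872) lies on the minus strand of chromosome 1 from 78101267 to 78197134, Pax7 (ENSMUSG00000028736) on the minus strand of chromosome 4 from 139737062 to 139833528, and Lbx1 (ENSMUSG00000025216) on the minus strand of chromosome 19 from 45232684 to 45235812. Met (ENSMUSG00000009376) lies on the plus strand of chromosome 6 from 17463800 to 17573980, and Hgf (ENSMUSG00000028864) on the plus strand of chromosome 5 from 16553550 to 16620152. Cxcr4 (ENSMUSG00000045382) lies on the minus strand of chromosome 1 from 128588199 to 128592293, and Six4 (ENSMUSG00000034460) on the minus strand of chromosome 12 from 73099609 to 73113456. Eya1 (ENSMUSG00000025932) lies on the minus strand of chromosome 1 from 14168954 to 14310235, and Eya2 (ENSMUSG00000017897) on the plus strand of chromosome 2 from 165595032 to 165771727. Hgf, Eya1 and Eya2 each overlap 2 small annotated genes, and since the strand of counting was not stated, reads from these cannot be told apart. The other 6 genes overlap no annotated gene.

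Pax3 and Pax7 are close paralogs that moved in opposite directions over time, so the stretch where their coding sequences are most alike is shown. Capitals mark the longest run of identical bases between the coding sequences, 26 bases. Both stretches run from base 43 to base 140 of the coding sequence (GENCODE M21).
Pax3: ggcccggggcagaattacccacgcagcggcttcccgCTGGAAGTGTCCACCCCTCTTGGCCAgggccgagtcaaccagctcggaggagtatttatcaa
Pax7: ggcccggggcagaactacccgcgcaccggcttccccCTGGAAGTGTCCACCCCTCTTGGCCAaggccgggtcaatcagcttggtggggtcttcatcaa
The shared run is shorter than the 150-base reads. The longest shared run was 20 bases between Eya1 and Eya2.

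Promoter windows of 300 bases (250 before to 50 after a RefSeq start, GRCm38.p6) were at hand for 5 of the 9 genes, in 7 windows. The window of Met and 1 of the 2 windows of Hgf are shown because receptor and ligand were both lower in C59 limb buds at 12 h. Capitals mark E-boxes (CANNTG on either strand), the binding motif of MYOD-type factors.
Met, chr6:17463707-17464006, plus strand: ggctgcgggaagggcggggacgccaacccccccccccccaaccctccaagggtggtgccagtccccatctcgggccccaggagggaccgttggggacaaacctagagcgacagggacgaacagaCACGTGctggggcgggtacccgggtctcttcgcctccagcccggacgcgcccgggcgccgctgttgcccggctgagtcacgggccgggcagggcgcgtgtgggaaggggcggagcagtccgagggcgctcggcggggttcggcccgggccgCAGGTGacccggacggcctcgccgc
Hgf, chr5:16553245-16553544, plus strand: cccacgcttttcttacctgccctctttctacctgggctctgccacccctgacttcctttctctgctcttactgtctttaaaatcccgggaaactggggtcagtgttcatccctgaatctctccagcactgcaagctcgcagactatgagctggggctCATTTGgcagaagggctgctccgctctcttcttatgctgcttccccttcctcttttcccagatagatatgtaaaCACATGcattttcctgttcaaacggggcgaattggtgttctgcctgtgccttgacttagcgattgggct
The Hgf window shown ends before the gene start given above, 16553550. The other Hgf window, chr5:16553651-16553950, held 0 E-boxes. E-boxes occur in 72.3% of all 32851 windows of this length. The TCF/LEF motif CTTTGAT, which 3.73% of all windows hold, and the paired domain motif GTCACGC, which 2.09% hold, had no match in any of the 7 windows. The MEF3 motif TCAGGTT, which SIX4 binds and which 4.07% hold, matched in 1 window of Six4. These matches are letters in a window and no evidence of binding.

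Library totals ran from 18188636 to 38974885 counts over all genes of the table. Levels are given as CPM, counts scaled by the TMM-normalized library size, and as FPKM, which is also per transcript length, where genes are compared with each other. By chi-square per degree of freedom, 4 libraries stood farthest from both others of their group: C59 24 h replicate 2 (42.2 and 31.6), DMSO 6 h replicate 1 (41.7 and 35.4), C59 18 h replicate 3 (38.9 and 32.9) and DMSO 18 h replicate 1 (35.8 and 28.8). The biological coefficient of variation (the spread between replicates beyond counting) was 12.5% at 18 h against 5.41% to 7.52% at the other time points. Embryo sex was not balanced. For 4 Y-linked genes together, FPKM summed to 0 in the 3 DMSO libraries of 6 h and to between 19.8 and 33.2 in the 3 C59 libraries of 6 h, so sex and treatment cannot be told apart at 6 h. Of 18 libraries with Y-linked transcripts (a sum of at least 5 FPKM), 14 also held at least 10 FPKM of Xist, the transcript of the inactive X chromosome. C59 24 h replicate 3, for example, held 19.3 FPKM of Y-linked transcripts and 47.6 of Xist, whereas C59 1 h replicate 1 held 37.0 and 0.08. The description of a single pair of forelimb buds per replicate does not account for libraries with transcripts of both sexes. Whether such a library holds RNA of more than 1 embryo was not tested.

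Axin2, a direct target of WNT/β-catenin signaling, was lower in C59 libraries at 6 h, by a log2 fold change of -1.97 ± 0.06 (SE, adjusted p = 7.55e-11, edgeR). It was at 26.5, 29.0 and 29.2 CPM in C59 libraries at 6 h, against 104 to 118 CPM in DMSO libraries. It was also lower at 1 h (-0.19 ± 0.04, adjusted p = 0.0282) and 12 h (-1.46 ± 0.06, adjusted p = 1.4e-07), and did not pass at 18 h (-0.16 ± 0.09, adjusted p = 0.333) or 24 h (-0.08 ± 0.07, adjusted p = 0.507). Since Pax3, Pax7 and Lbx1 are also neural tube genes, 12 neural tube genes were summed. They reached 0.71 to 5.66 CPM in all, which is below Lbx1 in every library. Within a treatment and time, the sum overlapped Pax7 in DMSO and in C59 at 1, 6 and 12 h. In C59 libraries the sum overlapped Pax3 at 18 h. It lay wholly above Pax3 in C59 at 12 h (4.75 to 5.66 against 2.71 to 3.87 CPM). The same held in C59 at 24 h (at least 4.26 against at most 2.25 CPM). The neural tube share of Pax3 and Pax7 was not tested. Up to 9 of the 12 neural tube genes were at 0 in a library. Of those tested, Lhx1 was higher at 6 h (2.56 ± 0.32, adjusted p = 0.000111), at 2.17 CPM in C59 and 0.356 CPM in DMSO, and Sox1 was higher at 12 h (1.33, adjusted p = 0.0382). Msc (MyoR), a muscle progenitor marker not among the 9 genes, was present, at between 0.925 and 17.6 CPM.

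In DMSO limb buds 1 h after injection, Lbx1 had the highest level per length of the 9 genes, 10.4 ± 0.464 FPKM (SD, n = 3), and no other gene overlapped it. Six4, Eya2, Cxcr4, Pax3, Eya1 and Met followed between 7.41 and 5.92 FPKM, and neighbours in that order overlapped in their ranges. Hgf lay lower at 4.11 ± 0.283 FPKM and Pax7 lowest at 0.15 ± 0.0491 FPKM, each apart from its neighbours. By 24 h Eya2 stood at the top with 8.72 ± 0.576 FPKM, overlapping Cxcr4 (7.33 ± 0.912), and Pax3 was last with 1.157 ± 0.166 FPKM.

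Over the same 24 h, DMSO limb buds lost Pax3 and gained Pax7. Between 1 h and 24 h, 7 of the 9 genes passed the test (edgeR quasi-likelihood F test, adjusted p below 0.05), 5 lower and 2 higher, where 59.3% of all 13580 genes passed. Pax3 fell from 29.8 ± 1.08 to 5.45 ± 0.628 CPM (log2 fold change -2.46 ± 0.10, adjusted p = 4.89e-11). Pax7 rose from 0.94 ± 0.157 to 13.7 ± 0.459 CPM, 14.4-fold (adjusted p = 6.02e-11). Every library of 24 h lay above every library of 1 h, as in 32.9% of all genes. Hgf fell by 1.34 ± 0.12 on the log2 scale (adjusted p = 1.94e-07) and Lbx1 fell by 0.80 ± 0.08 (adjusted p = 4.6e-07). Eya1 (-0.27 ± 0.08, adjusted p = 0.0115) and Met (-0.25 ± 0.08, adjusted p = 0.0154) were slightly lower, and Eya2 was slightly higher (0.26 ± 0.08, adjusted p = 0.00819). Cxcr4 (0.06 ± 0.11, adjusted p = 0.688) and Six4 (-0.11 ± 0.06, adjusted p = 0.137) did not pass.

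**Figure D1:**
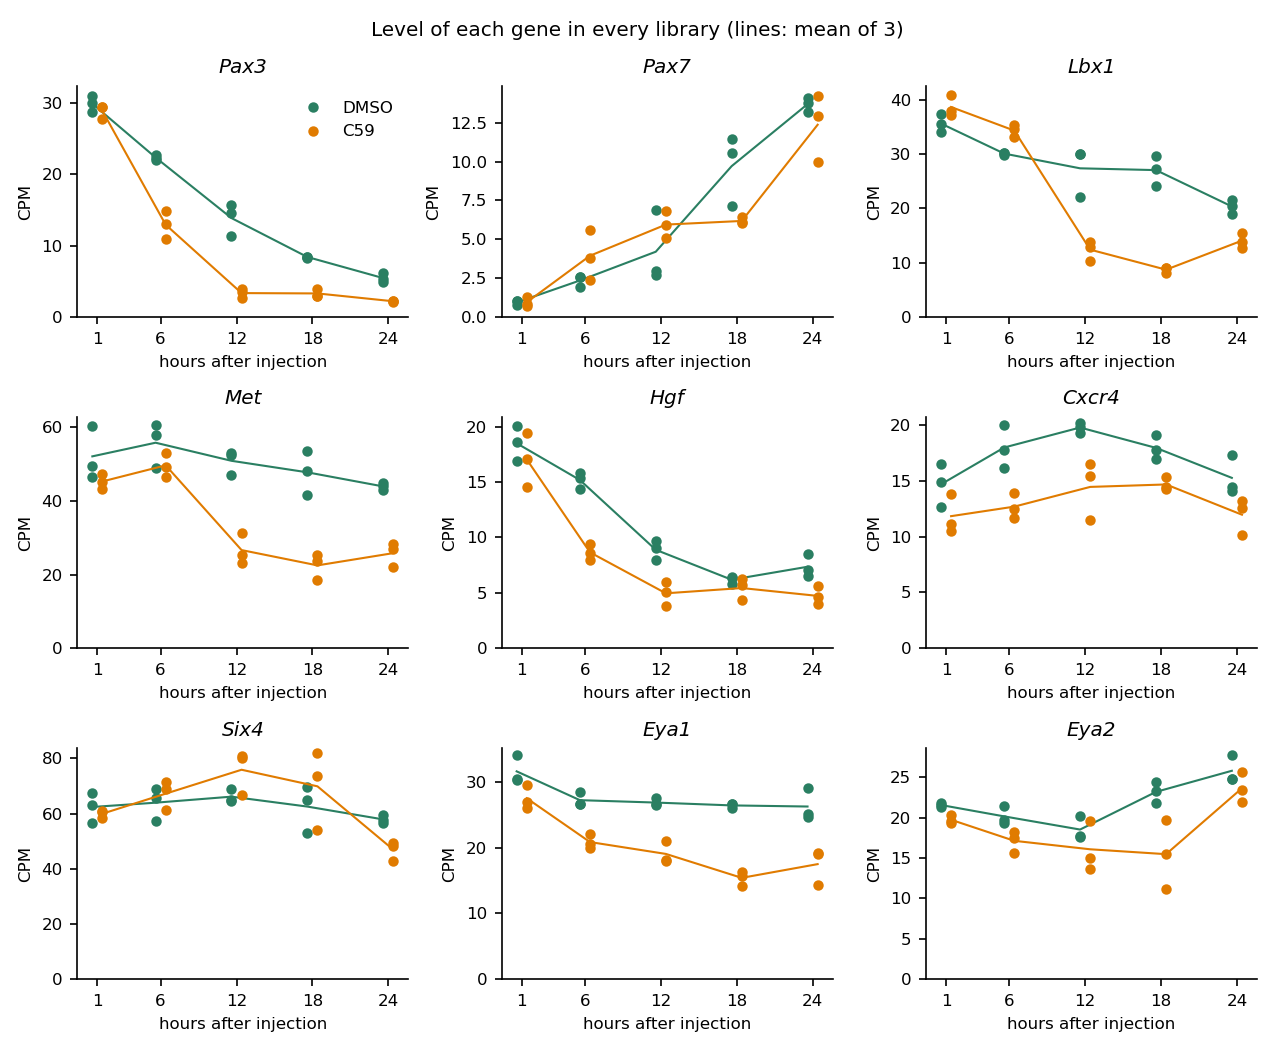
CPM of the 9 genes in each of the 30 libraries against hours after injection, with DMSO in green, C59 in orange and lines through the group means. From 12 h to 24 h all C59 points of Pax3, Lbx1, Met and Eya1 lie below all DMSO points, whereas Pax7 climbs in both groups. Within a time point, C59 lay below DMSO without overlap in 30%, 19.1% and 14.9% of all genes at 12, 18 and 24 h.

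Pax3 and Eya1 passed as lower in C59 limb buds at every time point from 6 h on, and Lbx1 and Met at every time point from 12 h on. Hgf, Cxcr4 and Six4 passed as lower at some time points, and Pax7 and Eya2 at none. None of the 9 passed as higher in this test, whereas Lbx1 at 6 h and Six4 at 12 h did so under some other scalings, as given with each gene. A gene is said to have passed at an adjusted p below 0.05 and to be called where its log2 fold change was also beyond 1 in either direction. At 1 h 0 of 9 passed, where 2.75% of all 13076 genes did. Without adjustment 3 of the genes, Met, Cxcr4 and Eya1, had a p under 0.05 in the same edgeR test, and DESeq2 also passed 0 of 9. At 6 h 4 of 9 passed as lower and 0 were called, where 11.4% of all genes passed as lower. At 12 h 6 passed as lower and 2 were called (Pax3 and Lbx1), where 25.5% of all genes passed as lower and 1.43% were called lower. At 18 h 4 passed as lower and 3 were called (Pax3, Lbx1 and Met), where 3.62% passed as lower and 0.738% were called lower. At 24 h 6 passed as lower and 1 was called (Pax3), where 3.56% passed as lower and 0.402% were called lower. The median log2 fold change of the 9 genes was -0.12, -0.24, -0.49, -0.64 and -0.53 at the 5 successive time points, and that of all genes was between 0.00 and 0.02. At 24 h the count was 3 of 9 without DMSO replicate 3. At 6 h 1 of 9 was called without C59 replicate 1, which was Pax7, as higher (1.01, adjusted p = 0.0213).

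Libraries without Y-linked transcripts allowed a comparison within 1 sex at 12 h, with 2 libraries in each group. There Pax3 (-2.19, adjusted p = 1.3e-05), Lbx1 (-1.36, adjusted p = 1.52e-05) and Met (-0.95, adjusted p = 0.000136) were lower by about as much as in all libraries. At 18 h, with 1 C59 and 2 DMSO libraries, their values were -1.49, -1.63 and -0.89 and did not pass (adjusted p = 0.0779, 0.068 and 0.113). The lone library was assumed there to vary like the others.

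**Figure D2:**
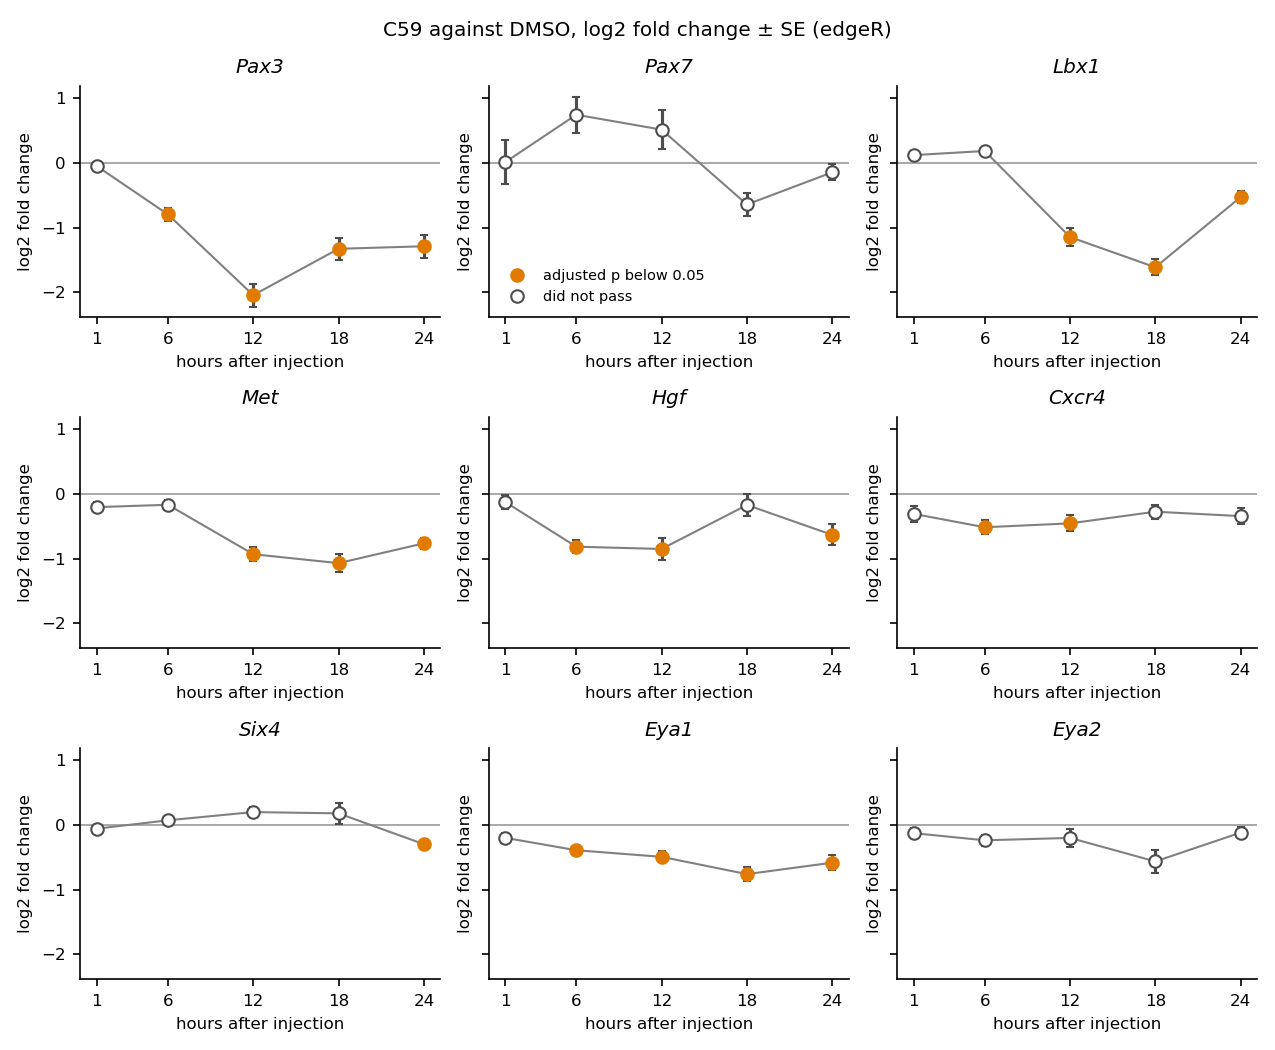
Log2 fold change of C59 against DMSO with its SE for each of the 9 genes at each time point, from edgeR on the 6 libraries of that time; filled points passed at adjusted p below 0.05. Pax3 is lowest at 12 h (-2.04) and Lbx1 at 18 h (-1.61), while Pax7 and Eya2 pass at no time.

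Pax3, the paired-box factor at the head of the program, had the lowest log2 fold change of the 9 genes at 12 h and at 24 h. At 1 h it was at 29.9, 28.7 and 30.9 CPM in DMSO and at 29.4, 29.4 and 27.7 CPM in C59, and the groups overlapped. After 6 h DMSO libraries were at 22.3, 22.0 and 22.7 CPM and C59 libraries at 10.9, 13.0 and 14.8 CPM, with no overlap, as in 19.3% of all genes. That is a log2 fold change of -0.80 ± 0.10 (adjusted p = 0.000131). At 12 h Pax3 was at 14.5, 11.3 and 15.7 CPM in DMSO and at 3.49, 3.87 and 2.71 CPM in C59, 4.12-fold lower (log2 -2.04 ± 0.18, adjusted p = 8.28e-06), where 30% of all genes had C59 below DMSO without overlap. It was then at 8.44, 8.46 and 8.32 against 2.95, 2.997 and 3.98 CPM at 18 h (-1.33 ± 0.17, adjusted p = 0.0036) and at 6.12, 4.88 and 5.35 against 2.25, 2.25 and 2.13 CPM at 24 h (-1.29 ± 0.17, adjusted p = 0.00124). Every C59 library from 12 h on was below the lowest DMSO library of any time, 4.88 CPM. How many of all genes lay below every DMSO library of any time was not counted. The counts behind these C59 values were 44 to 92 per library.

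Pax7, the paralog that marks later progenitors, did not follow Pax3. At 6 h it was at 1.91, 2.55 and 2.60 CPM in DMSO and at 2.42, 5.59 and 3.83 CPM in C59 (0.74 ± 0.28, adjusted p = 0.0779), and at 12 h at 2.99, 6.90 and 2.72 against 5.07, 6.85 and 5.93 CPM (0.51 ± 0.30, adjusted p = 0.189). The ranges overlapped at both times. The value at 12 h rests on DMSO replicate 2, without which it was 1.05 with an adjusted p of 0.00202. At 18 h all 3 C59 libraries, at 6.03, 6.09 and 6.42 CPM, were below the DMSO libraries at 7.14, 11.5 and 10.54 CPM (-0.64 ± 0.18, adjusted p = 0.0718), where 19.1% of all genes had C59 below DMSO without overlap, and DESeq2 gave an adjusted p of 0.0297. Without DMSO 18 h replicate 1 the value was -0.81 with an adjusted p of 0.0383. At 24 h the values were 14.1, 13.2 and 13.8 CPM in DMSO and 13.0, 9.97 and 14.2 CPM in C59 (-0.14 ± 0.12, adjusted p = 0.542). In C59 limb buds Pax7 rose 13.1-fold from 1 h to 24 h (adjusted p = 5.03e-09), next to 14.4-fold in DMSO.

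Per length, Pax7 overtook Pax3 at an earlier time in C59 libraries. In FPKM, Pax7 was above Pax3 in 0 of 3 DMSO libraries at 12 h, 0 of 3 at 18 h and 3 of 3 at 24 h, and in 2 of 3 C59 libraries at 12 h, 3 of 3 at 18 h and 3 of 3 at 24 h. At 18 h the log2 ratio of Pax7 to Pax3 ran from -0.84 to -0.08 in DMSO and from 0.32 to 0.65 in C59, and at 24 h from 0.63 to 1.01 and from 1.44 to 2.23. The ranges did not overlap at 6, 12, 18 or 24 h. These ratios are a description with no test.

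**Figure D3:**
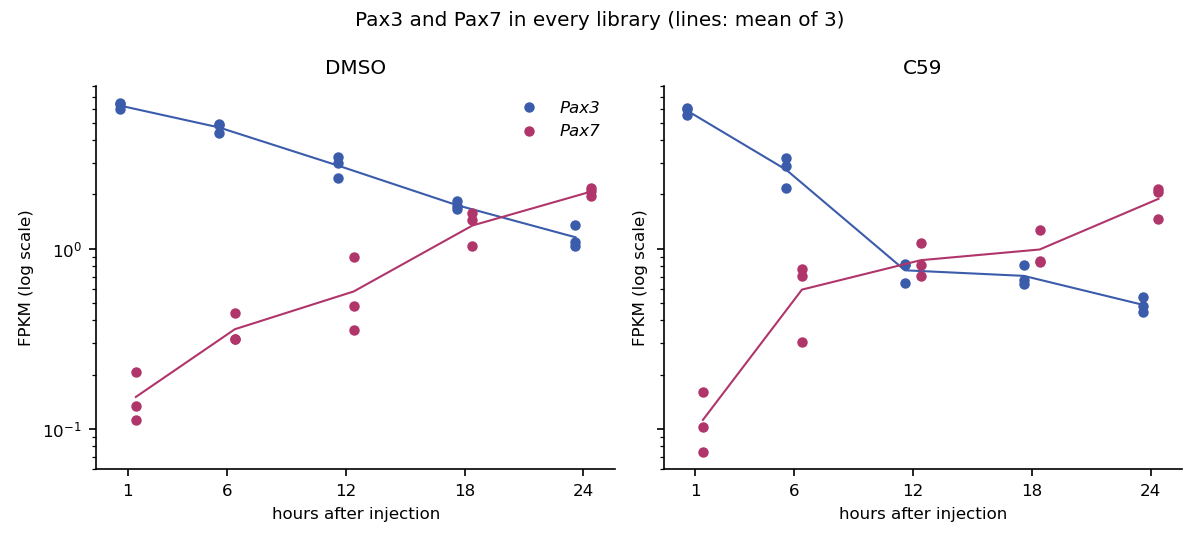
FPKM of Pax3 (blue) and Pax7 (red) in each library on a log axis against hours after injection, DMSO at left and C59 at right, with lines through the means of 3 libraries. The order of the means changes between 18 h and 24 h in DMSO and by 12 h in C59, where Pax7 is above Pax3 in 2 of 3 libraries.

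Lbx1, a homeobox factor of progenitors that migrate into the limb, passed at later times than Pax3. At 6 h it was at 30.2, 29.9 and 30.2 CPM in DMSO and at 33.1, 34.5 and 35.4 CPM in C59 (0.18 ± 0.06, adjusted p = 0.0521), so every C59 library was above every DMSO library, as in 17.5% of all genes, when Pax3 was already lower. With upper-quartile scaling the adjusted p at 6 h was 0.0324. At 12 h Lbx1 was at 29.996, 22.1 and 30.04 CPM in DMSO and at 13.9, 12.9 and 10.4 CPM in C59, 2.21-fold lower (log2 -1.15 ± 0.14, adjusted p = 9.31e-05). At 18 h it was at 29.7, 24.2 and 27.3 against 9.07, 9.04 and 8.05 CPM, 3.05-fold lower (-1.61 ± 0.12, adjusted p = 0.000623). At 24 h it was at 19.0, 21.5 and 20.5 against 12.8, 15.5 and 13.9 CPM (-0.53 ± 0.10, adjusted p = 0.0084). All C59 libraries of 12, 18 and 24 h lay below the lowest DMSO library of any time (19.0 CPM), again without a count over all genes.

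Met, the receptor that HGF activates, passed at the same time points as Lbx1. The groups overlapped at 6 h, with 49.0, 57.8 and 60.7 CPM in DMSO and 49.4, 46.6 and 53.1 CPM in C59 (-0.17 ± 0.08, adjusted p = 0.143). Without DMSO 6 h replicate 1, which was lowest of its group, Met was at -0.26 and passed (adjusted p = 0.0172). At 12 h Met was at 52.6, 47.1 and 53.1 CPM in DMSO and at 25.4, 31.4 and 23.2 CPM in C59, 1.91-fold lower (-0.93 ± 0.10, adjusted p = 4.58e-05). It was 2.10-fold lower at 18 h (adjusted p = 0.00478), with C59 libraries at 25.3, 23.6 and 18.6 CPM, and 1.70-fold lower at 24 h (adjusted p = 0.000374), with 22.1, 27.1 and 28.3 CPM. None of these C59 libraries reached the lowest DMSO library of any time, 41.5 CPM, a rule that was not counted over all genes.

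Hgf, the ligand made by limb mesenchyme, was already lower at 6 h. At 6 h it was at 15.4, 14.4 and 15.8 CPM in DMSO and at 8.59, 7.95 and 9.42 CPM in C59, 1.76-fold lower (log2 -0.81 ± 0.10, adjusted p = 0.000127). At 12 h it was at 9.63, 7.96 and 9.05 against 5.99, 5.09 and 3.77 CPM (-0.85 ± 0.18, adjusted p = 0.00253). At 18 h the groups overlapped, with 6.44, 6.32 and 5.78 CPM in DMSO and 6.22, 5.69 and 4.36 CPM in C59 (-0.17 ± 0.17, adjusted p = 0.579). At 24 h C59 libraries, at 3.9996, 4.58 and 5.57 CPM, were again below DMSO libraries, at 8.54, 6.48 and 7.01 CPM (-0.63 ± 0.16, adjusted p = 0.0391). Of all genes at 24 h, 14.9% had C59 below DMSO without overlap. The call at 24 h was lost without any 1 of 5 of the 6 libraries (adjusted p from 0.0554 to 0.176).

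Of 12 further genes of the HGF-MET pathway, 2 passed as higher and 0 as lower at 6 h, 3 and 2 at 12 h, 1 and 0 at 18 h, and 1 and 2 at 24 h; at 1 h none of the 11 tested passed. Of all genes 8.2% passed as higher and 11.4% as lower at 6 h, and 22% and 25.5% at 12 h, so the pathway's share at 12 h was near that of all genes. The shares over all genes were 3.46% and 3.62% after 18 h, and 2.88% and 3.56% after 24 h. The pathway genes' median log2 fold change was 0.04 at 6 h and -0.02 at 12 h. Gab1, the docking adaptor of MET, was higher at 6 h (0.19 ± 0.05, adjusted p = 0.0266) and at 12 h, where it was at 104 ± 1.13 CPM in C59 and 68.2 ± 3.16 CPM in DMSO (0.60 ± 0.05, adjusted p = 4.96e-06). The call at 6 h was lost without DMSO 6 h replicate 1 (adjusted p = 0.105). Gab1 did not pass at 1 h (0.13 ± 0.05), 18 h (0.33 ± 0.10) or 24 h (0.03 ± 0.06). Spint2, an inhibitor of the protease that activates pro-HGF, was higher at the 4 time points from 6 h on (0.21, 0.39, 0.75 and 0.37), with adjusted p of 0.0344, 0.000216, 0.00419 and 0.0161. Shc1, an adaptor, was higher at 12 h (0.16, adjusted p = 0.0406). At 12 h the phosphatase gene Ptpn11 (-0.26, adjusted p = 0.00043) and the adaptor gene Crk (-0.17, adjusted p = 0.00776) were lower, and at 24 h the ubiquitin ligase gene Cbl (-0.30, adjusted p = 0.0326) and the exchange factor gene Sos1 (-0.24, adjusted p = 0.0456) were lower.

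Cxcr4, the chemokine receptor, was moderately lower. DMSO libraries were at 20.0, 16.2 and 17.8 CPM at 6 h and C59 libraries at 12.5, 13.9 and 11.7 CPM (-0.52 ± 0.10, adjusted p = 0.00382), and at 12 h the values were 19.9, 19.3 and 20.3 against 16.5, 15.4 and 11.5 CPM (-0.46 ± 0.12, adjusted p = 0.0124). At 18 h (-0.28 ± 0.11, adjusted p = 0.158) and 24 h (-0.34 ± 0.12, adjusted p = 0.121) the 3 C59 libraries were still below the 3 DMSO libraries, without passing, as in 19.1% of all genes at 18 h and 14.9% at 24 h. Endothelial cells also express Cxcr4. The sum of 10 endothelial genes was 391 to 432 CPM in DMSO and 496 to 546 CPM in C59 at 12 h, and 6 of these 10 passed as higher, where 22% of all genes did. At 24 h the sum was 440 to 451 CPM in DMSO and 386 to 413 CPM in C59. Kdr passed as lower there (-0.259 ± 0.065, adjusted p = 0.0342, edgeR), where 3.56% of all genes did. The sums overlapped at 1, 6 and 18 h. The part of endothelial cells in the Cxcr4 result was not tested.

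Genes of the axis went both ways. Cxcl12, the ligand of CXCR4, was higher at 6 h (0.31 ± 0.06, adjusted p = 0.00177), at 12 h with 243 ± 19.9 CPM in C59 and 141 ± 16.3 CPM in DMSO (0.79 ± 0.08, adjusted p = 2.8e-05), at 18 h (0.52 ± 0.09, adjusted p = 0.0123) and at 24 h (0.37 ± 0.06, adjusted p = 0.00309), and did not pass at 1 h (-0.17 ± 0.06, adjusted p = 0.178). The call at 18 h was lost without DMSO 18 h replicate 1 (adjusted p = 0.0603). Ackr3, the scavenger receptor that binds CXCL12, was higher at 6 h (0.25 ± 0.07, adjusted p = 0.0233) and 12 h (0.59 ± 0.07, adjusted p = 7.07e-05). Of the 7 axis genes, at 12 h 4 passed as higher and 3 as lower, with a median of 0.17, where 22% and 25.5% of all genes did. The lowest was Gnai1, a G protein subunit gene (-0.94 ± 0.10, adjusted p = 3.55e-05), which was also lower at 6 h (-0.30 ± 0.07, adjusted p = 0.00518). At 18 h and at 24 h Cxcl12 was the 1 axis gene that passed, where 3.46% and 2.88% of all genes passed as higher.

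Among Six4, Eya1 and Eya2, Eya1, which encodes a coactivator of SIX4, was the 1 that was lower over most of the course. It was at 26.6, 28.5 and 26.6 CPM in DMSO and at 20.0, 22.1 and 20.5 CPM in C59 at 6 h (-0.39 ± 0.07, adjusted p = 0.00211). At 12 h it was at 27.5, 26.5 and 26.6 against 18.1, 21.1 and 18.0 CPM (-0.49 ± 0.08, adjusted p = 0.000742), and at 18 h at 26.7, 26.0 and 26.7 against 16.3, 15.7 and 14.2 CPM (-0.76 ± 0.10, adjusted p = 0.005). At 24 h it was at 25.1, 24.7 and 29.1 against 14.3, 19.0 and 19.2 CPM (-0.58 ± 0.11, adjusted p = 0.011). From 6 h on every C59 library was below the lowest DMSO library of any time, 24.7 CPM, which was not counted over all genes. On FPKM with limma, Eya1 did not pass at 6 h (adjusted p = 0.107 with a pseudocount of 1).

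Eya2, the paralog, passed at no time. Its largest difference was at 18 h, with 23.3, 21.9 and 24.5 CPM in DMSO and 11.2, 15.5 and 19.8 CPM in C59 (-0.56 ± 0.18, adjusted p = 0.103). The spread among the C59 libraries was wide there, and without C59 18 h replicate 3 the value was -0.78 with an adjusted p of 0.00761.

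Six4, a homeobox gene, was above every DMSO library in 2 of 3 C59 libraries at 12 h and below every DMSO library in 3 of 3 at 24 h. Within 24 h, C59 lay below DMSO without overlap in 14.9% of all genes. It was at 69.0, 64.9 and 64.4 CPM in DMSO and at 80.2, 80.7 and 66.7 CPM in C59 at 12 h (0.20 ± 0.08, adjusted p = 0.0507), and at 53.0, 64.9 and 69.6 against 81.8, 73.7 and 54.0 CPM at 18 h (0.18 ± 0.16, adjusted p = 0.538), where C59 replicate 3 was lowest. The value at 12 h sits at the threshold: with upper-quartile scaling it was 0.28 with an adjusted p of 0.012. At 24 h Six4 was lower, at 59.4, 57.6 and 56.6 CPM in DMSO and 43.0, 48.2 and 49.5 CPM in C59 (-0.30 ± 0.07, adjusted p = 0.0286). That call was lost without DMSO replicate 1, 2 or 3 or C59 replicate 2 (adjusted p from 0.0529 to 0.138).

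Of 6 further genes of the SIX-EYA-DACH network, 1 passed as higher and 1 as lower at 6 h, 3 and 2 at 12 h, 0 and 1 at 18 h and 0 and 1 at 24 h; at 1 h none passed. Over all genes 8.2% passed as higher and 11.4% as lower at 6 h, and 22% and 25.5% at 12 h. At 18 h these shares were 3.46% and 3.62%, and at 24 h 2.88% and 3.56%. Six5 was higher at 6 h (0.35 ± 0.07, adjusted p = 0.00192) and 12 h (0.55 ± 0.05, adjusted p = 9.07e-06), and Eya4 at 12 h (0.22 ± 0.07, adjusted p = 0.0246). Dach1, a corepressor, was lower at 6 h (-0.36 ± 0.08, adjusted p = 0.00606), 12 h (-0.59 ± 0.06, adjusted p = 3.13e-05) and 24 h (-0.57 ± 0.09, adjusted p = 0.00222). Eya3 was lower at 12 h (-0.14 ± 0.05, adjusted p = 0.0304) and Six2 at 18 h (-0.53 ± 0.10, adjusted p = 0.016).

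The change of the C59 effect from 1 time point to the next was tested on the 12 libraries of both. From 1 h to 6 h, 2 of 9 genes passed, where 13% of all genes did: the effect on Pax3 moved by -0.74 ± 0.12 (adjusted p = 0.000428) and that on Hgf by -0.69 ± 0.15 (adjusted p = 0.0064) on the log2 scale. From 6 h to 12 h 3 passed, where 18.1% did: Lbx1 by -1.33 ± 0.15 (adjusted p = 2.6e-05), Pax3 by -1.25 ± 0.21 (adjusted p = 0.000573) and Met by -0.76 ± 0.14 (adjusted p = 0.00125). From 12 h to 18 h 0 of 9 passed with edgeR, where 8.49% did; Pax3, Pax7, Lbx1 and Hgf had an unadjusted p under 0.05, and 1 of 9 passed with DESeq2 or without C59 18 h replicate 3. From 18 h to 24 h 1 passed, where 6.96% did: the effect on Lbx1 moved back toward 0 by 1.07 ± 0.15 (adjusted p = 0.00137). Without C59 18 h replicate 3, 3 of 9 passed there.

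Genes that act beside the 9 in muscle progenitors did not share 1 direction. Of 11 such partner genes 10 were tested at each time, and Tcf21 was not, at no more than 0.616 CPM in any library. At 6 h 4 passed as higher and 3 as lower, at 12 h 6 and 3, at 18 h 1 and 5, and at 24 h 1 and 3; at 1 h none passed. The shares of all genes that passed as higher and as lower were 8.2% and 11.4% at 6 h, 22% and 25.5% at 12 h, 3.46% and 3.62% at 18 h, and 2.88% and 3.56% at 24 h. Without DMSO 18 h replicate 1 the counts at 18 h were 0 and 2, and without C59 24 h replicate 2 that of lower partners at 24 h was 1. The partners' median log2 fold change was 0.28, 0.54, -0.43 and -0.13 at the 4 time points from 6 h on. Fgfr4, a receptor of muscle progenitors, was higher at 6 h, with 10.9 ± 1.155 CPM in C59 and 5.13 ± 0.718 CPM in DMSO (1.10 ± 0.14, adjusted p = 0.00012), and at 12 h (0.54 ± 0.17, adjusted p = 0.0228), and lower at 18 h, with 10.1 ± 1.19 against 20.2 ± 2.91 CPM (-0.98 ± 0.15, adjusted p = 0.00645), and at 24 h (-0.57 ± 0.12, adjusted p = 0.0144; 0.0502 without C59 24 h replicate 2). Msc, a repressor of myogenic factors, was likewise higher at 12 h (0.63 ± 0.14, adjusted p = 0.00332) and lower at 18 h (-0.91 ± 0.15, adjusted p = 0.0111; 0.0554 without DMSO 18 h replicate 1), and did not pass at 1, 6 or 24 h (-0.59 ± 0.28, 0.45 ± 0.18 and -0.19 ± 0.09).

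Meox2 and Dmrt2 were lower over several time points. Meox2, a homeobox gene needed for limb muscle, passed as lower at 6 h (-0.61 ± 0.06, adjusted p = 1.06e-05), 12 h (-0.62 ± 0.07, adjusted p = 3.69e-05) and 18 h (-0.51 ± 0.08, adjusted p = 0.00822), and did not pass at 1 h (-0.30 ± 0.08) or 24 h (-0.07 ± 0.07). Dmrt2, a gene of the dermomyotome, was lowest of the list at 6 h (-0.89 ± 0.16, adjusted p = 0.00147) and 12 h (-1.10 ± 0.13, adjusted p = 6.08e-05), and was also lower at 18 h (-0.59, adjusted p = 0.0401) and 24 h (-0.47, adjusted p = 0.04). Foxc1, a gene of somite and limb mesenchyme, was highest at 12 h (1.23 ± 0.14, adjusted p = 6.34e-05), 18 h (0.66 ± 0.13, adjusted p = 0.0187) and 24 h (0.48 ± 0.07, adjusted p = 0.00302).

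Muscle differentiation genes were mostly higher in C59 limb buds at 12 h, when Pax3, Lbx1 and Met were lower. Of 16 listed genes 15 were tested at 12 h, of which 12 passed as higher and 1 (Myf5) as lower, with 9 called higher and a median log2 fold change of 1.14, where 22% of all genes passed as higher and 3.53% were called higher. At 6 h 2 of 14 passed as higher, Myod1 and Myog, and 1 as lower, Chrna1, an acetylcholine receptor subunit gene (-0.90 ± 0.26, adjusted p = 0.0239). At 18 h 3 of 15 passed as higher and 1 as lower, and at 24 h 6 and 1; at 1 h 0 of 12 passed. Of all genes 8.2% passed as higher and 11.4% as lower at 6 h. These shares were 3.46% and 3.62% at 18 h, and 2.88% and 3.56% at 24 h. The 3 at 18 h were Acta1, Myh3 and Actc1, genes of the contractile apparatus (1.13, 0.88 and 0.80, with adjusted p of 0.0417, 0.0237 and 0.0447). The count of 3 at 18 h ranged from 0 to 5 when 1 library was left out, being 5 without C59 18 h replicate 3 and 0 without DMSO 18 h replicate 1.

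Myod1, a determination factor, was higher early and lower late. It was at 38.5 ± 4.79 CPM in C59 and 14.0 ± 1.156 CPM in DMSO at 6 h (1.46 ± 0.10, adjusted p = 3.91e-07), was still higher at 12 h (0.55 ± 0.14, adjusted p = 0.00832), did not pass at 18 h (-0.36 ± 0.14, adjusted p = 0.153) and was lower at 24 h (-0.38 ± 0.08, adjusted p = 0.0179; 0.0516 without C59 24 h replicate 2). Its level in C59 was 38.5, 38.6 and 38.8 CPM at 6, 12 and 18 h, while DMSO went from 14.0 to 50.5 CPM. Myog, which drives terminal differentiation, was higher at 6 h (1.03 ± 0.12, adjusted p = 5.98e-05) and at 12 h, with 69.7 ± 7.56 against 23.6 ± 11.5 CPM (1.56 ± 0.23, adjusted p = 0.000329), and did not pass at 18 h (0.35 ± 0.13) or 24 h (-0.05 ± 0.07). Mymx, the fusion peptide gene, was higher at 12 h (1.89 ± 0.21, adjusted p = 4.63e-05), and Ttn, which encodes titin, had the highest value of the list at that time (2.28 ± 0.51, adjusted p = 0.00397). At 24 h the highest was Acta1, skeletal actin (1.58 ± 0.18, adjusted p = 0.000362).

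Myf5, the determination factor expressed first in limb muscle, was lower at 12 h and 18 h, where Myod1 was higher or did not pass. It did not pass at 1 h (-0.53 ± 0.14, adjusted p = 0.0646) or 6 h (0.17 ± 0.11, adjusted p = 0.273). It was at 6.26 ± 0.607 CPM in C59 and 12.5 ± 1.02 CPM in DMSO at 12 h (-0.996 ± 0.13, adjusted p = 0.000105) and at 5.61 ± 0.46 against 12.5 ± 0.54 CPM at 18 h (-1.13 ± 0.13, adjusted p = 0.00229). At 24 h it was at 11.8 ± 1.98 against 12.4 ± 1.22 CPM (-0.08 ± 0.13, adjusted p = 0.771).

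**Figure D4:**
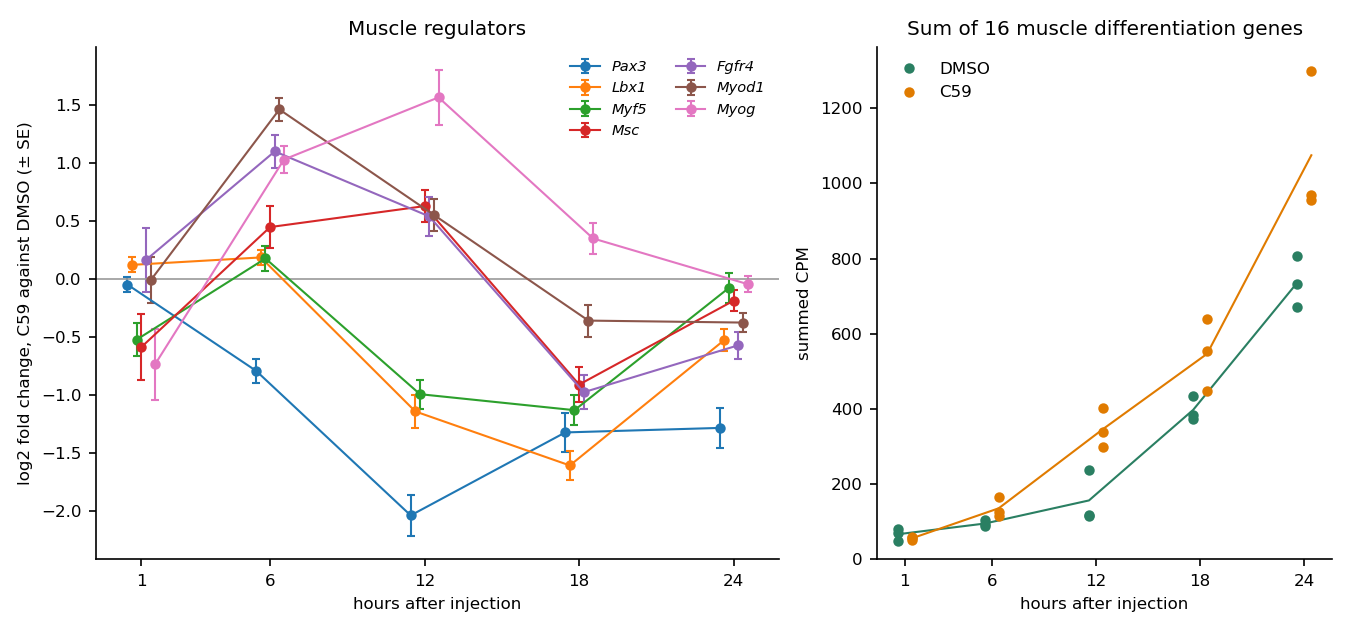
Left, log2 fold change of C59 against DMSO with its SE for 7 muscle regulators at each time point. Right, summed CPM of the 16 muscle differentiation genes in each library. Myod1, Fgfr4 and Myog are above 0 at 6 h and 12 h while Pax3 is below, and the sum at 12 h is 115 to 237 CPM in DMSO and 298 to 401 CPM in C59.

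Markers of other cells moved at the same time points, and their part in the results was not tested. Of all genes at 12 h, 22% passed as higher and 25.5% as lower. At 12 h the sum of 10 surface ectoderm genes was 337 to 365 CPM in DMSO and 447 to 608 CPM in C59, with 8 of 10 passed as higher (Krt5 highest, 0.79 ± 0.10, adjusted p = 0.000105). The sum of 10 blood and macrophage genes was 37.7 to 42.6 against 59.8 to 63.3 CPM, with 5 of 10 passed as higher (Fcer1g highest, 1.12 ± 0.24, adjusted p = 0.00311). The sum of 10 neural crest and Schwann precursor genes was 66.7 to 91.2 against 112 to 152 CPM, with 4 of 9 tested passed as higher (Erbb3 highest, 1.23 ± 0.11, adjusted p = 8.5e-06). Dct (1.15, adjusted p = 0.0445) and Sox10 (0.74, adjusted p = 0.0257) were among them. Limb mesenchyme genes went both ways at 12 h, with 4 of 8 higher and 4 of 8 lower (Pdgfra 0.56 ± 0.06, Twist1 -1.19 ± 0.05, adjusted p = 3.41e-05 and 1.4e-07). The sum of the 8 was 3299 to 3520 CPM in DMSO and 3050 to 3295 CPM in C59. Of 8 somite and sclerotome genes, Nkx3-2 was higher at 12 h (3.17 ± 0.24, adjusted p = 4.09e-06) and Pax1 lower (-0.79 ± 0.08, adjusted p = 2.63e-05), and their sum was 81.8 to 91.1 against 56.7 to 67.2 CPM. At 6 h Twist1 was at -1.39 ± 0.04 (adjusted p = 5.63e-11) and Cdh19, a neural crest gene, at 1.99 ± 0.37 (adjusted p = 0.00186). At 18 h and 24 h the ectoderm sum was still higher in every C59 library, with 428 to 483 against 335 to 355 CPM and 454 to 481 against 384 to 396 CPM.

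Across the 30 libraries the genes most like Pax3, by Pearson's r of log2 CPM over 12532 genes, were Slc25a13 (r = 0.972), Hnrnpm (0.965), Crmp1 (0.961), Gldc (0.959) and Ccnj (0.958). Those most like Lbx1 were Spag5 (0.95), Hmgn1 (0.944), Ttf2 (0.942), Lhx2 (0.94) and Rrm2 (0.939). For Pax7 they were Hic1 (0.975), Synpo2l (0.969) and Pitx3 (0.967), for Met Lbr (0.94), Lhx9 (0.907) and Scd2 (0.906), and for Hgf Slc25a13 (0.928), Lix1 (0.928) and Elovl2 (0.927). For Six4 they were Kdm7a (0.927), Rc3h1 (0.889) and Zdbf2 (0.879), and for Eya1 Lhx9 (0.887), Raver1 (0.874) and Rpap3 (0.869). The likeness was weaker for Eya2 (Col26a1 0.809, Arf1 0.791, Pth1r 0.789) and Cxcr4 (Pax1 0.742, Slitrk6 0.662, Adat1 0.651). By Spearman's rank correlation the names changed. For Lbx1 they were Melk (0.959), Bub1, Kif22, Ppm1d and Mastl, all other than above. Those of Hgf (Lhx9, Ppp1r2 and Mapk1ip1l) and Eya2 (Myh15, Apcdd1 and Hkdc1) were also all other. Slc25a13, Hnrnpm and Gldc stayed among those of Pax3, and Hic1 and Pitx3 among those of Pax7. The points share time, treatment, depth and library preparation, so these values are a description. After the mean of each time point was subtracted, Met and Eya1 were most alike of the 9 (r = 0.928), followed by Pax3 and Met (0.886) and Lbx1 and Met (0.882), whereas Pax7 and Six4 had an r between -0.38 and 0.16 with each other gene of the set.

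In C59 limb buds 8 of the 9 genes differed between 24 h and 1 h, 6 lower and 2 higher, where 54.1% of all genes passed. Pax3 was 12.8-fold lower at 24 h (adjusted p = 8.96e-12), next to 5.51-fold in DMSO, and Lbx1 2.71-fold lower (adjusted p = 1.33e-08), next to 1.74-fold in DMSO. Met was 1.74-fold lower (adjusted p = 5.36e-06), next to 1.19-fold in DMSO, and Hgf 3.58-fold lower (adjusted p = 1.41e-07), next to 2.54-fold. The difference between these courses was not tested. Cxcr4 did not pass in either course.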

How the data were processed

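PolyA RNA of 30 mouse forelimb bud samples (10 groups of 3) was sequenced by the authors, who trimmed reads with cutadapt 1.16 and mapped them to mm10 with STAR 2.7.0e. The deposited counts are unnormalized reads per gene, written during mapping; the strand of counting is not given in the sources used here. The deposited FPKM values were made by the authors with Cufflinks 2.2.1, with multi-read and bias correction.

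From the counts, protein-coding autosomal genes (GENCODE M21) were kept, 20569 protein-coding genes being in the table and 205 counted genes having no match in the annotation. For each time point, C59 was compared with DMSO on its 6 libraries with edgeR 4.0.16 (R 4.3.3), after filterByExpr (minimum count 10, minimum total 15) and TMM scaling, by the quasi-likelihood F test with Benjamini-Hochberg adjustment over all genes tested. Changes of effect used an interaction term on the 12 libraries of consecutive time points. The SE is the log2 fold change divided by the square root of F. CPM used the TMM library sizes of all 30 libraries. Counts of 18188636 to 38974885 per library bound the precision, and errors cover the spread between these samples, which came from several litters per the methods.

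The 9 genes and the gene lists were chosen with earlier results of these data known. Named list genes were those with the highest and lowest fold change among those that passed, all of a list of which 5 or fewer passed, and Cxcl12, Gab1, Meox2, Msc, Myf5, Myod1 and Myog. A gene that this rule named at 1 time point was also given at others, which were chosen after the values were seen. Some genes that the rule names are not reported here.

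No 2 replicates of a group agreed within sampling noise: over the 30 pairs of libraries the chi-square statistic divided by its degrees of freedom lay between 3.31 and 42.2, and none was counted as a duplicate. Of 15 pairs with the same replicate number 1 had a correlation of deviations over 0.1, so numbers were not taken to pair the samples. Alternatives were DESeq2 1.42.0, other scalings and filters, all libraries in 1 fit, limma 3.58.1 on log2(FPKM + 1) and log2(FPKM + 0.1), glmTreat, a replicate block, leaving out each library, and, chosen after seeing the data, libraries without Y-linked transcripts. The test was tested on simulated data for the 12 h comparison on 11493 genes. It recovered 100% of 100 genes changed by 1.5 and 100% of 100 changed by 3 on the log2 scale. Genes with low mean counts were left out of this simulation, and the spread between replicates was fixed. No change under 1.5 was simulated, so the recovery of smaller changes, of genes with low counts or under a wider spread was not tested.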

Additional observations from a re-analysis of the deposited data

Results flagged for a closer look

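For 4 of the 9 genes the C59 effect differed between consecutive time points by the interaction test of edgeR. The effect on Pax3 moved by -0.74 from 1 h to 6 h and by -1.25 from 6 h to 12 h on the log2 scale. That on Hgf moved by -0.69 from 1 h to 6 h. The effect on Lbx1 moved by -1.33 from 6 h to 12 h and by 1.07, back toward 0, from 18 h to 24 h. That on Met moved by -0.76 from 6 h to 12 h. These tests share libraries at the time point between them, and their causes were not tested.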

How the results depend on the processing

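Across the alternatives, the 18 h and 24 h results depended most on the setting. With limma on log2(FPKM + 1), 3 of 9 genes passed at 24 h and 0 were called there, 1 was called at 12 h and 1 at 18 h, and with log2(FPKM + 0.1) 3 passed at 24 h. With glmTreat, which tests against the fold threshold itself, 1 was called at 12 h, 0 at 18 h and 0 at 24 h. In libraries without Y-linked transcripts 4 were called at 12 h, and at 18 h (1 against 2 libraries) 0 passed and 0 were called, with Pax3 at -1.49 (adjusted p = 0.0779). From 12 h to 18 h, 1 gene passed with DESeq2, 1 with log2(FPKM + 1) and 1 with the replicate block. Of the muscle lists, 1 partner was lower at 1 h with DESeq2, 1 with no filter and 1 with all libraries. At 18 h 1 differentiation gene was higher with all libraries, 1 with each pseudocount and 0 without Y-linked libraries, 2 partners were higher with all libraries and 0 without Y-linked libraries, and 0 were lower without Y-linked libraries. At 24 h 2 differentiation genes were higher with all libraries. The shares over all genes in these settings, and with 1 library left out, are not reported here.

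With 1 library left out, the genes passed ranged from 0 to 0 at 1 h, 4 to 5 at 6 h, 6 to 7 at 12 h, 4 to 5 at 18 h and 3 to 6 at 24 h, and those called from 0 to 1 at 6 h, 2 to 3 at 12 h, 2 to 3 at 18 h and 1 to 1 at 24 h. Changes of effect passed in 2 to 2, 3 to 3, 0 to 2 (2 without DMSO 12 h replicate 2) and 1 to 3 genes (3 without C59 18 h replicate 3), and the courses over 24 h in 6 to 8 (DMSO) and 7 to 8 (C59). Higher differentiation genes ranged from 2 to 2 at 6 h, 11 to 14 at 12 h, 0 to 5 at 18 h and 4 to 6 at 24 h. Higher partners ranged from 4 to 4 at 6 h, 5 to 6 at 12 h and 0 to 1 at 18 h, and lower partners from 0 to 1 at 1 h, 2 to 3 at 6 h, 3 to 3 at 12 h, 2 to 6 at 18 h and 1 to 3 at 24 h.

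Reversed values were small. Pax7 at 1 h was -0.049 with log2(FPKM + 1), -0.24 with log2(FPKM + 0.1), 0 with the replicate block and -0.255 to 0.156 with 1 library left out. Six4 ranged from -0.125 to 0.002 at 1 h and from -0.004 to 0.137 at 6 h, and Cxcr4 from -0.049 to 0.146 over the DMSO course and from -0.048 to 0.164 over the C59 course. Hgf at 18 h was 0.044 without Y-linked libraries.

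With the replicate block 0, 4, 7, 4 and 5 genes passed at 1, 6, 12, 18 and 24 h. Of all genes tested at these times, 260 of 13076, 2138 of 13100, 6539 of 13324, 478 of 13413 and 762 of 13675 passed with the block. Six4 joined at 12 h (adjusted p = 0.0287) and Hgf was lost at 24 h (adjusted p = 0.0502). Of the C59 libraries, 5 of 15 correlated best with the DMSO library of their own number, a hint from the data and not the design. Over all genes at 18 h, 949 passed without the block and 478 with it. The cause of these differences was not tested.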
